A study of Mus musculus with 12 samples.

Results

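Transcript levels of 9 mouse genes that mark naive, quiescent and recirculating T cells were followed across 4 groups of CD4+ T cells. The 9 genes are Ccr7, Il7r, S1pr1, Klf2, Foxo1, Igfbp4, Dapl1, Id3 and Id2. They were chosen by gene symbol, and all 9 were found among the 35492 symbols of the deposited tables. RNA sequencing gave 12 libraries, 3 in each group, from C57BL/6J mice aged 7 weeks, with 300000 cells for each RNA preparation. Tfh_TILS libraries came from CXCR5+ PD1+ CD4+ cells, the surface markers by which follicular helper T (Tfh) cells are gated, sorted out of MC38 tumours, which are grown from a mouse colon carcinoma line. Tfh_OTII libraries came from naive cells of OT-II mice, which bear a transgenic T cell receptor specific for a peptide of ovalbumin. These cells were cultured in IL-6 and IL-21 (50 ng/ml each) with blocking antibodies to IL-4, to IFNγ and to TGFβ (10 µg/ml each). Tfh_Vitro libraries came from wild-type naive cells in that same medium. Th1_Vitro libraries came from wild-type naive cells given IL-12 (10 ng/ml) with the antibody against IL-4 (10 µg/ml). All cultures were on plates coated to engage CD3 and CD28. Titles give 24 h for Tfh_Vitro and Th1_Vitro and 48 h for Tfh_OTII, whereas the protocol text gives 48 h for both kinds of culture, so OT-II origin and culture time cannot be told apart. No library of unstimulated naive cells was analysed here.

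A naive T cell recirculates between blood and lymph nodes, entering a node through the chemokine receptor CCR7 and leaving it along a gradient of the lipid sphingosine 1-phosphate, which is sensed by S1PR1. It stays out of the cell cycle and survives on IL-7, read by the receptor chain IL7R. FOXO1, a transcription factor that AKT kinase drives out of the nucleus after stimulation, and KLF2, a zinc-finger factor, keep this programme on. ID2 and ID3 bind E proteins, a family of transcription factors, and stop them from binding DNA. In CD4+ T cells Id3 is known from naive and follicular helper cells and Id2 from Th1 cells. Igfbp4 encodes a secreted protein that binds insulin-like growth factors, and Dapl1 encodes a small protein related to death-associated protein. Both transcripts are abundant in naive T cells.

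Levels are in TPM, a unit that takes transcript length into account and adds up to 1000000 in each library. The gene model Gm10800 took 2.40 to 12.4% of TPM in Tfh_TILS, 0.0480 to 0.271% in Tfh_OTII, 1.84 to 8.24% in Tfh_Vitro and 23.7 to 42.7% in Th1_Vitro. TPM have a fixed sum, so a large share of 1 gene model lowers the values of all others. Values divided by median-of-ratios size factors, which were 1.06 to 1.44 in the other groups and 0.472 to 0.668 in Th1_Vitro, are called scaled TPM below. How much of these factors comes from Gm10800 was not tested. A gene is said to be higher or lower, to have risen or to have fallen, only where limma gave an adjusted p under 0.05 in the same direction both with scaled TPM and with TPM as deposited. The labels were checked on Cxcr5, the defining receptor of Tfh cells, which had 11.0 to 16.3 TPM in Tfh_TILS, 4.34 to 6.56 TPM in Tfh_OTII, 5.50 to 7.34 TPM in Tfh_Vitro and 0.872 to 2.33 TPM in Th1_Vitro. On scaled values the ranges were 7.74 to 12.8, 3.75 to 4.54, 4.79 to 6.68 and 1.60 to 4.84 TPM in the same order, so Th1_Vitro overlapped both Tfh cultures. Il21, the gene of a Tfh cytokine, went against the label in the tumour group, with 5.28 to 9.25 TPM in Tfh_TILS, 66.8 to 71.4 TPM in Tfh_OTII, 75.1 to 97.8 TPM in Tfh_Vitro and 1.49 to 7.69 TPM in Th1_Vitro. The other Tfh markers, Bcl6, Pdcd1 and Icos, had their highest means in Tfh_TILS, as deposited and scaled. On scaled values Pdcd1 and Icos averaged less in Tfh_OTII (11.6 and 19.7 TPM) than in Th1_Vitro (14.4 and 34.4 TPM). Tbx21, the defining factor of Th1 cells, averaged 15.1, 3.91 and 9.27 scaled TPM in Tfh_TILS, Tfh_OTII and Tfh_Vitro and 26.9 scaled TPM in Th1_Vitro, but as deposited it averaged 19.8, 4.63, 11.0 and 15.7 TPM, highest in Tfh_TILS. Of the other Th1 genes, Ifng had its highest scaled mean in Th1_Vitro, whereas the scaled means of Il12rb2 and Cxcr3 there lay below those in Tfh_Vitro. Tfh_TILS replicate 2 stood apart from its group. It had 638 TPM of 7 macrophage and monocyte markers, against 69.0 and 174 TPM in replicates 1 and 3, 8.75 to 25.4 TPM in Tfh_OTII, 17.4 to 24.0 TPM in Tfh_Vitro and 5.95 to 7.21 TPM in Th1_Vitro. All 7 markers averaged 1 scaled TPM or more in Tfh_TILS, 3 of 7 did in each of the other groups, and none was at 0 in every library of a group. In bulk RNA, fewer cells of a type and less RNA per cell cannot be told apart.

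Promoter sequence is shown for Igfbp4 and Dapl1, the only members called between Tfh_TILS and Tfh_Vitro; in Tfh_TILS the first was above and the second below Th1_Vitro. RefSeq (GRCm38.p6) promoters were matched for 7 of the 9 genes. Each line gives the 250 bases that end at the base before the RefSeq start, 5′ to 3′ on the gene's strand, with motif matches in capitals. The Igfbp4 window is chr11:99040994-99041243 and the Dapl1 window is chr2:59484403-59484652, both on the plus strand.
Igfbp4: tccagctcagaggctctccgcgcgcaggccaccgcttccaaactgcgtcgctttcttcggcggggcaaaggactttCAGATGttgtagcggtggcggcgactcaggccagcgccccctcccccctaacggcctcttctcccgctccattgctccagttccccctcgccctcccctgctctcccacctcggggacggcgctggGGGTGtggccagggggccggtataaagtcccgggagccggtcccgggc
Dapl1: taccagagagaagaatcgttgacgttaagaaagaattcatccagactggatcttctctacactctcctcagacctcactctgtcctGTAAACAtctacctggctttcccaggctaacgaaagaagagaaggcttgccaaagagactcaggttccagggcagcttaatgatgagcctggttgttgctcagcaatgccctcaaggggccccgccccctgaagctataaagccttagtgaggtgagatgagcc
The letters searched on both strands were GTAAACA for FOXO factors, CACCC for KLF factors, CANNTG for the E-box that E proteins bind, and TTCNNNGAA for STAT factors. The capitals in Igfbp4 are 1 E-box match (CAGATG) and 1 KLF match (GGGTG, on the opposite strand), and those in Dapl1 are 1 FOXO match. Of the 7 promoters, 1 held the FOXO letters, 4 the KLF letters, 4 an E-box and 1 the STAT letters. Among 32851 promoters of the same length, 3.17% held the FOXO letters, 52.0% the KLF letters, 66.2% an E-box and 7.02% the STAT letters. These matches describe sequence and were not set against any binding data. In GENCODE (GRCm38), Igfbp4 spans chr11:99041244-99054392 and Dapl1 chr2:59484653-59505020, and both windows lie just upstream of the annotated gene. No other annotated gene overlaps either.

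The wild-type cultures were compared first, IL-6 and IL-21 against IL-12. Igfbp4, S1pr1, Id2 and Klf2 were higher in Tfh_Vitro than in Th1_Vitro, and none was lower in both fits. These are 4 of 9 members, against 9.15% of the 23308 genes tested that were called in both fits (8.65% higher and 0.506% lower). On scaled values alone 6 members were called, against 13.7% of all genes, and as deposited 6 were called, against 41.6%. The median difference of log2(scaled TPM + 1) was 0.96 over the members and 0.14 over all genes, and 1.95 and 0.78 as deposited. Scaling thus moved the median over all genes by 0.64. Single genes moved by other amounts, such as Igfbp4, with 4.47 as deposited and 3.42 scaled. The share of symbols listed at 0 moved with these groups, at 8.20 to 13.7% in Tfh_Vitro and 19.5 to 41.4% in Th1_Vitro. Lars2 differed widely within Th1_Vitro, with 144525, 1418 and 2407 TPM in replicates 1, 2 and 3, against 20324 to 24092 TPM in Tfh_Vitro. The part of these library differences in the results against Th1_Vitro was not tested.

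Igfbp4 had 502, 472 and 339 TPM in the 3 Tfh_Vitro libraries and 17.5, 16.8 and 21.6 TPM in the Th1_Vitro libraries. The groups were far apart, and Igfbp4 showed the widest gap of the 9 genes in this comparison. Its scaled mean was 376 ± 103 TPM in Tfh_Vitro and 33.4 ± 1.97 TPM in Th1_Vitro (SD, n = 3 each), a fold of 10.7 (log2 difference 3.42 ± 0.29 SE, limma adjusted p = 2.45e-05).

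The egress receptor S1pr1 and the entry receptor Ccr7 stood differently. S1pr1 had 18.9, 15.6 and 18.9 TPM in Tfh_Vitro, against 1.48, 2.02 and 2.48 TPM in Th1_Vitro. Every Tfh_Vitro library was thus above every Th1_Vitro library, and the log2 difference on scaled values was 1.83 ± 0.24 (SE, limma adjusted p = 0.000485). Ccr7 had 133, 115 and 106 TPM in Tfh_Vitro, against 150, 115 and 193 TPM in Th1_Vitro. The deposited ranges of Ccr7 overlapped, with a log2 difference of -0.34 (limma adjusted p = 0.259). Scaled Ccr7 averaged 101 ± 19.7 TPM in Tfh_Vitro and 269 ± 24.1 TPM in Th1_Vitro (SD, n = 3 each), a log2 difference of -1.42 ± 0.26 (SE, limma adjusted p = 0.00406). Ccr7 was therefore called only after scaling. B cell markers summed to 6.89 to 8.67 scaled TPM in Tfh_Vitro and 20.4 to 26.1 in Th1_Vitro. Dendritic cell markers summed to 14.8 to 17.2 and 19.0 to 67.7 scaled TPM, but overlapped as deposited (18.6 to 19.3 and 10.4 to 45.2 TPM). The part of such RNA in the Ccr7 levels was not tested. Within a library, where scaling cancels, the ratio of S1pr1 to Ccr7 was 0.142, 0.135 and 0.178 in Tfh_Vitro and 0.00987, 0.0176 and 0.0128 in Th1_Vitro, an 11.5-fold difference with no overlap. This ratio and the Id2 to Id3 ratio below were chosen after their values were seen, and an exact two-sided permutation test of 3 against 3 libraries cannot give a p below 0.1, which was the value for both.

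The ID protein genes also stood differently. Id2 had 96.3, 78.0 and 85.9 TPM in Tfh_Vitro, against 8.89, 18.9 and 14.9 TPM in Th1_Vitro, with a scaled log2 difference of 1.54 ± 0.42 (SE, limma adjusted p = 0.0275). Id3 had 16.5, 13.1 and 12.6 TPM in Tfh_Vitro, against 20.7, 15.9 and 51.4 TPM in Th1_Vitro. Tfh_Vitro replicate 1 lay above Th1_Vitro replicate 2 in Id3 as deposited, while scaled ranges were apart. The scaled log2 difference of Id3 was -1.88 ± 0.30 (SE, limma adjusted p = 0.00184) and the deposited one was -0.84 (limma adjusted p = 0.0616). The ratio of Id2 to Id3 was 5.86, 5.96 and 6.81 in Tfh_Vitro and 0.430, 1.19 and 0.289 in Th1_Vitro, an 11.7-fold difference. Tfh_Vitro libraries thus held more Id2 than Id3 transcript per length, and 2 of the 3 Th1_Vitro libraries held more Id3 than Id2.

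**Figure D1:**
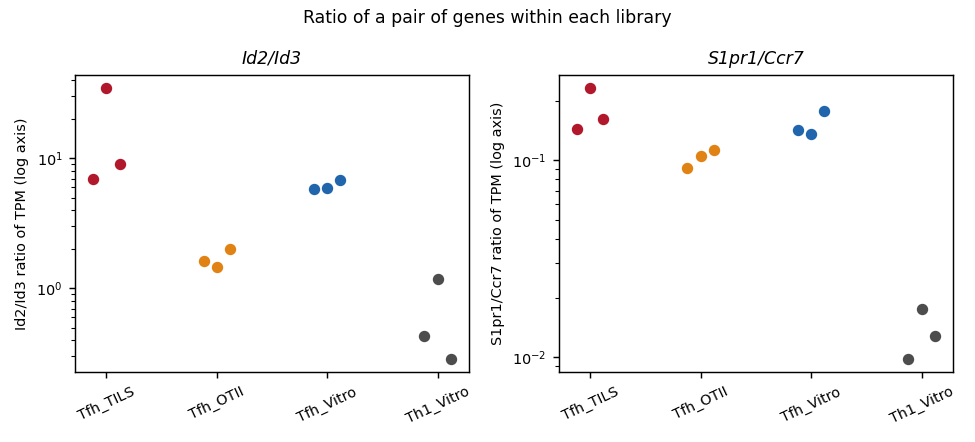
Ratio of Id2 to Id3 (left) and of S1pr1 to Ccr7 (right) within each library, on log axes without units. Each point is 1 of 3 libraries in Tfh_TILS, Tfh_OTII, Tfh_Vitro and Th1_Vitro. The Id2 to Id3 ratio lies between 6.95 and 34.8 in Tfh_TILS and between 0.289 and 1.19 in Th1_Vitro, and the S1pr1 to Ccr7 ratio is lowest in the 3 Th1_Vitro libraries.

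Of the transcription factors, Klf2 had 14.5, 12.3 and 13.0 TPM in Tfh_Vitro and 2.90, 1.06 and 2.54 TPM in Th1_Vitro. Klf2 was higher in Tfh_Vitro by 1.40 ± 0.38 on the scaled log2 scale (SE, limma adjusted p = 0.0272). Foxo1 had 16.8, 13.1 and 15.1 TPM in Tfh_Vitro and 5.97, 2.77 and 7.29 TPM in Th1_Vitro. Its deposited difference of 1.40 passed the test, and its scaled difference of 0.46 did not (limma adjusted p = 0.00156 and 0.251). The Il7r levels were 28.4, 24.2 and 32.8 TPM in Tfh_Vitro and 7.21, 7.96 and 4.86 TPM in Th1_Vitro. They were called as deposited (log2 difference 1.95, limma adjusted p = 0.00521) but not after scaling (0.96, limma adjusted p = 0.162). Dapl1 had 12.6, 16.0 and 10.8 TPM in Tfh_Vitro, against 10.6, 15.3 and 17.9 TPM in Th1_Vitro, and was called in neither fit (scaled -1.15, limma adjusted p = 0.0528). The calls of Klf2 and Id2 were the fragile ones: the scaled adjusted p of Klf2 was 0.0678 to 0.0868 without any 1 of the Tfh_Vitro libraries and 0.0782 without Th1_Vitro replicate 2, and that of Id2 was 0.0694 to 0.087 without any 1 of the Tfh_Vitro libraries and 0.0863 and 0.0609 without Th1_Vitro replicate 1 and 3.

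**Figure D2:**
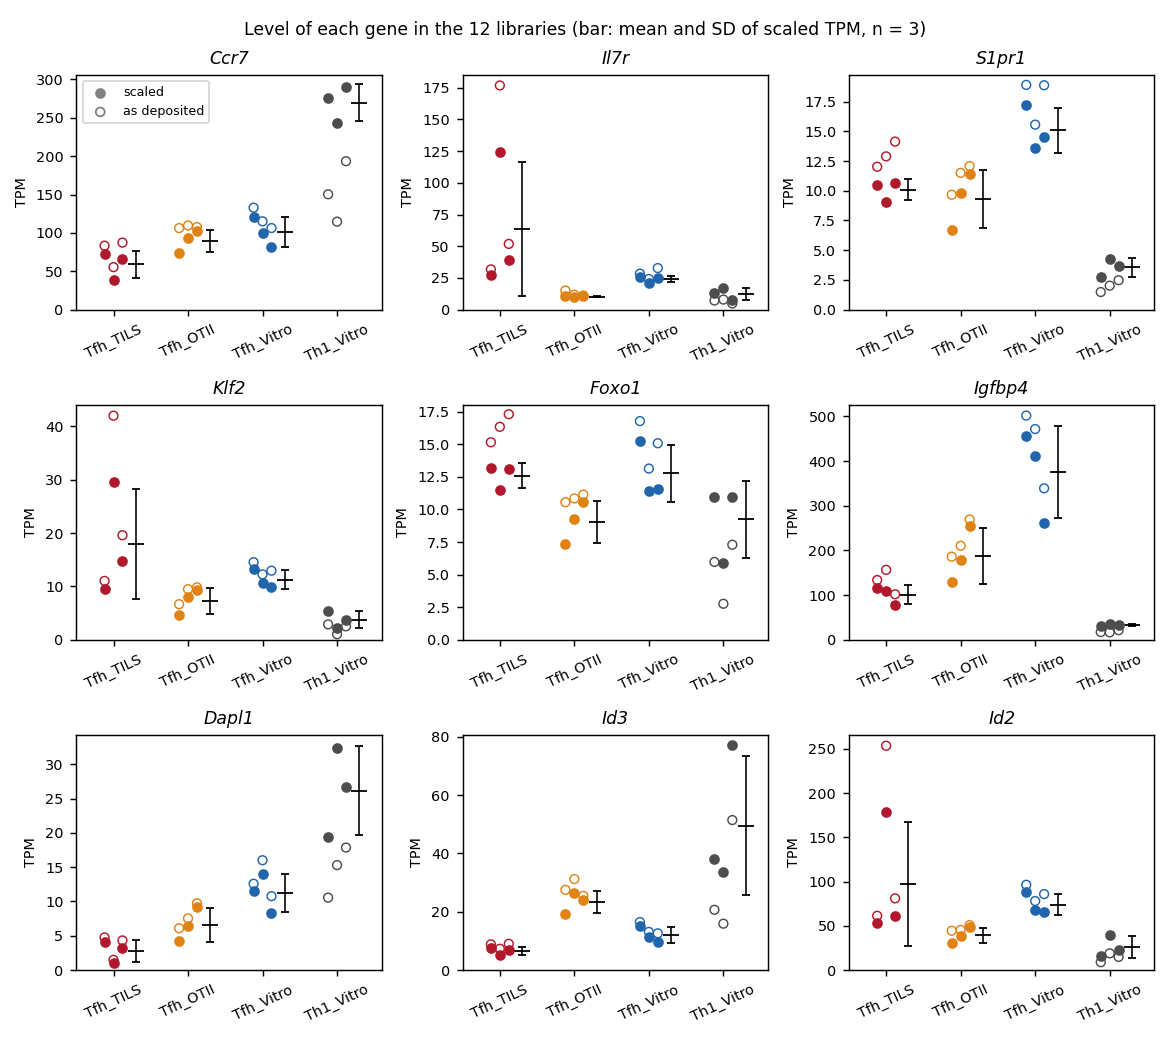
TPM of the 9 genes in the 12 libraries, by group. Filled points are scaled TPM, open points TPM as deposited, and the bar beside each group is the mean with SD of the scaled values (n = 3). Igfbp4 reaches 457 scaled TPM in Tfh_Vitro and at most 35.6 in Th1_Vitro, and Tfh_TILS replicate 2 (the middle point) lies above the other libraries of its group in Il7r, Klf2 and Id2.

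Related genes were read from lists of the same pathways. Of 12 other naive T cell genes, 4 were higher in Tfh_Vitro than in Th1_Vitro and 1 was lower. Treml2, a receptor of the TREM family, rose by 2.24 and Lef1, a partner of TCF1, by 1.33 on the scaled log2 scale, while the surface protein gene Ly6c1 fell by 2.42. The median of the 12 was -0.02 on scaled values and 0.98 as deposited, against 0.14 and 0.78 over all genes. Of 16 quiescence regulators, 3 were higher and 0 lower, among them the cyclin gene Ccng2 (1.45) and the cell cycle inhibitor gene Cdkn1b (1.39). Of 12 recirculation genes, 1 was higher, Arrb1 (1.78), whose product uncouples G protein-coupled receptors. Of 11 genes of IL-7 receptor signalling, 2 were higher, Ets1 (0.99) and the survival gene Bcl2 (0.96). Of 11 genes listed for PI3K and AKT control of FOXO1, 0 were called by limma in both fits (2 had an unadjusted p under 0.05). That list also held Pdk1, which encodes a pyruvate dehydrogenase kinase and is not the PI3K pathway kinase gene Pdpk1, listed beside it. Of 8 activation genes, 2 were higher: the proliferation marker Mki67 (3.35) and Il2ra, the IL-2 receptor alpha chain (0.87). Genes higher in Tfh_Vitro were thus found in the naive and quiescence lists and in the activation list as well. Of all genes, 8.65% were higher and 0.506% lower in both fits, and the lists were not tested against these shares.

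Tumour Tfh cells were next set against the wild-type Tfh culture. Igfbp4 and Dapl1 were lower in Tfh_TILS than in Tfh_Vitro, and no member was higher, so that 2 of 9 members were called, against 1.81% of all genes called in both fits (0.965% higher and 0.849% lower). The same 2 were called on scaled values and as deposited, where 2.12% and 2.10% of all genes were called. The median log2 difference was -0.54 over the members and 0.00 over all genes on scaled values, and -0.42 and 0.10 as deposited. Igfbp4 had 134, 157 and 102 TPM in Tfh_TILS, against 502, 472 and 339 TPM in Tfh_Vitro. The 2 groups did not overlap, and the scaled level fell by 1.87 on the log2 scale (SE 0.29, limma adjusted p = 0.00769). Dapl1 had 4.76, 1.50 and 4.32 TPM in Tfh_TILS, against 12.6, 16.0 and 10.8 TPM in Tfh_Vitro. It was lowest in Tfh_TILS replicate 2 and fell by 1.75 (SE 0.36, limma adjusted p = 0.0270). Both calls rest on few libraries. The scaled adjusted p of Igfbp4 was 0.0519 and 0.0552 without Tfh_Vitro replicate 1 and 2, and that of Dapl1 was 0.123 and 0.156 without these libraries and 0.0830 and 0.0628 without Tfh_TILS replicate 2 and 3.

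The other 7 members did not pass the test between Tfh_TILS and Tfh_Vitro, and Il7r, Klf2 and Id2 had a wide spread in the tumour group. Il7r had 31.8, 177 and 51.9 TPM in Tfh_TILS, against 28.4, 24.2 and 32.8 TPM in Tfh_Vitro. Klf2 had 11.0, 42.0 and 19.6 TPM in Tfh_TILS, against 14.5, 12.3 and 13.0 TPM in Tfh_Vitro. Id2 had 61.3, 253 and 81.0 TPM in Tfh_TILS, against 96.3, 78.0 and 85.9 TPM in Tfh_Vitro. All 3 genes were highest in Tfh_TILS replicate 2, and all 3 overlapped between these groups as deposited. That library also had the most Lyz2, a macrophage gene, with 34.1, 309 and 82.0 TPM in Tfh_TILS replicates 1 to 3, against 2.23 to 4.89 TPM in Tfh_Vitro. Foxp3, the defining factor of regulatory T cells, had 54.1, 147 and 74.4 TPM in Tfh_TILS, against 28.6, 12.9 and 31.7 TPM in Tfh_Vitro, so it followed the same order. The part of macrophage and regulatory T cell RNA in the levels of Il7r, Klf2 and Id2 was not tested. The scaled log2 differences were 1.07 for Il7r (95% interval 0.13 to 2.02, limma adjusted p = 0.293), 0.50 for Klf2 (-0.32 to 1.31) and 0.19 for Id2 (-0.71 to 1.09), and that of Id2 was -0.35 without Tfh_TILS replicate 2.

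Ccr7 had 83.4, 55.4 and 87.4 TPM in Tfh_TILS, against 133, 115 and 106 TPM in Tfh_Vitro, with a scaled log2 difference of -0.79 (95% interval -1.36 to -0.22, limma adjusted p = 0.169). S1pr1 had 12.0, 12.9 and 14.1 TPM in Tfh_TILS, against 18.9, 15.6 and 18.9 TPM in Tfh_Vitro (-0.54, 95% interval -1.05 to -0.02). Each Tfh_TILS library was below each Tfh_Vitro library for both receptors, as deposited and scaled, which was also so for 9.53% of all genes tested, and neither passed the test over all genes. The S1pr1 to Ccr7 ratio was 0.144, 0.233 and 0.162 in Tfh_TILS and overlapped that of Tfh_Vitro (exact permutation p = 0.5). Id3 had 8.82, 7.29 and 8.997 TPM in Tfh_TILS, against 16.5, 13.1 and 12.6 TPM in Tfh_Vitro (-0.78, 95% interval -1.44 to -0.13, limma adjusted p = 0.253). Foxo1 had 15.1, 16.3 and 17.3 TPM in Tfh_TILS, against 16.8, 13.1 and 15.1 TPM in Tfh_Vitro, and its scaled difference was -0.01 (95% interval -0.56 to 0.54). Foxo1 was the member with the smallest difference here.

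Among the related genes, 2 of the 12 other naive genes were lower in Tfh_TILS than in Tfh_Vitro and 0 were higher. These were Satb1, a chromatin organiser, which fell by 2.01, and Lef1, which fell by 1.62, and the median of the 12 was -0.69 on scaled values. The chemokine receptor gene Cxcr4 rose by 1.69, the only 1 of 12 recirculation genes that was called, and Icos, a costimulatory receptor gene of Tfh cells, rose by 1.49, the only 1 of 8 activation genes. No gene of the quiescence, IL-7 receptor or PI3K and AKT lists was called by limma in both fits, while 2 of 16, 2 of 11 and 5 of 11 had an unadjusted p under 0.05.

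The OT-II Tfh culture was compared with the wild-type Tfh culture, with the titles giving them different culture times. No member was called with limma in either fit, against 1.92% of all genes on scaled values, 2.38% as deposited and 1.81% in both (0.661% higher and 1.15% lower), while 5 of 9 had an unadjusted p under 0.05 on scaled values. Il7r had 15.1, 11.8 and 11.1 TPM in Tfh_OTII, against 28.4, 24.2 and 32.8 TPM in Tfh_Vitro (scaled log2 difference -1.14, 95% interval -2.08 to -0.19). Igfbp4 had 186, 210.4 and 269 TPM in Tfh_OTII, against 502, 472 and 339 TPM in Tfh_Vitro (-1.01, 95% interval -1.65 to -0.38, limma adjusted p = 0.118). Id3 had 27.5, 31.2 and 25.4 TPM in Tfh_OTII, against 16.5, 13.1 and 12.6 TPM in Tfh_Vitro (0.90, 95% interval 0.25 to 1.56, limma adjusted p = 0.187). Id2 had 44.4, 45.4 and 50.8 TPM in Tfh_OTII, against 96.3, 78.0 and 85.9 TPM in Tfh_Vitro, and the Id2 to Id3 ratio was 1.62, 1.45 and 2.00 in Tfh_OTII, 0.270-fold that of Tfh_Vitro (exact permutation p = 0.1, the smallest possible). S1pr1 had 9.67, 11.5 and 12.1 TPM and Klf2 6.68, 9.50 and 9.83 TPM in Tfh_OTII, both below every Tfh_Vitro library. Foxo1 had 10.5, 10.8 and 11.1 TPM in Tfh_OTII, against 16.8, 13.1 and 15.1 TPM in Tfh_Vitro (-0.46, 95% interval -1.01 to 0.09). Dapl1 had 6.10, 7.53 and 9.73 TPM in Tfh_OTII, against 12.6, 16.0 and 10.8 TPM in Tfh_Vitro (-0.71, 95% interval -1.50 to 0.08). As deposited, every member other than Ccr7 and Id3 was lower in each Tfh_OTII library than in each Tfh_Vitro library, as were 8.10% of all genes tested, a description and not a call. Ccr7 had 106, 110 and 108 TPM in Tfh_OTII, which overlapped Tfh_Vitro (-0.17, 95% interval -0.73 to 0.40). No gene of the related lists was called by limma in both fits, and 0 to 2 genes of each list had an unadjusted p under 0.05. With these 6 libraries alone in the fit, 3 members passed the test: Il7r (limma adjusted p = 0.00565), Id3 (0.0392) and Id2 (0.0403). The Y-linked gene Ddx3y had 29.7 to 37.6 TPM in Tfh_OTII. It had at most 1.47 TPM in Tfh_Vitro, 2.24 TPM in Tfh_TILS and 1.45 TPM in Th1_Vitro. The sex of the donor mice and the OT-II origin thus cannot be told apart either, here and in the other comparisons with Tfh_OTII below.

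**Figure D3:**
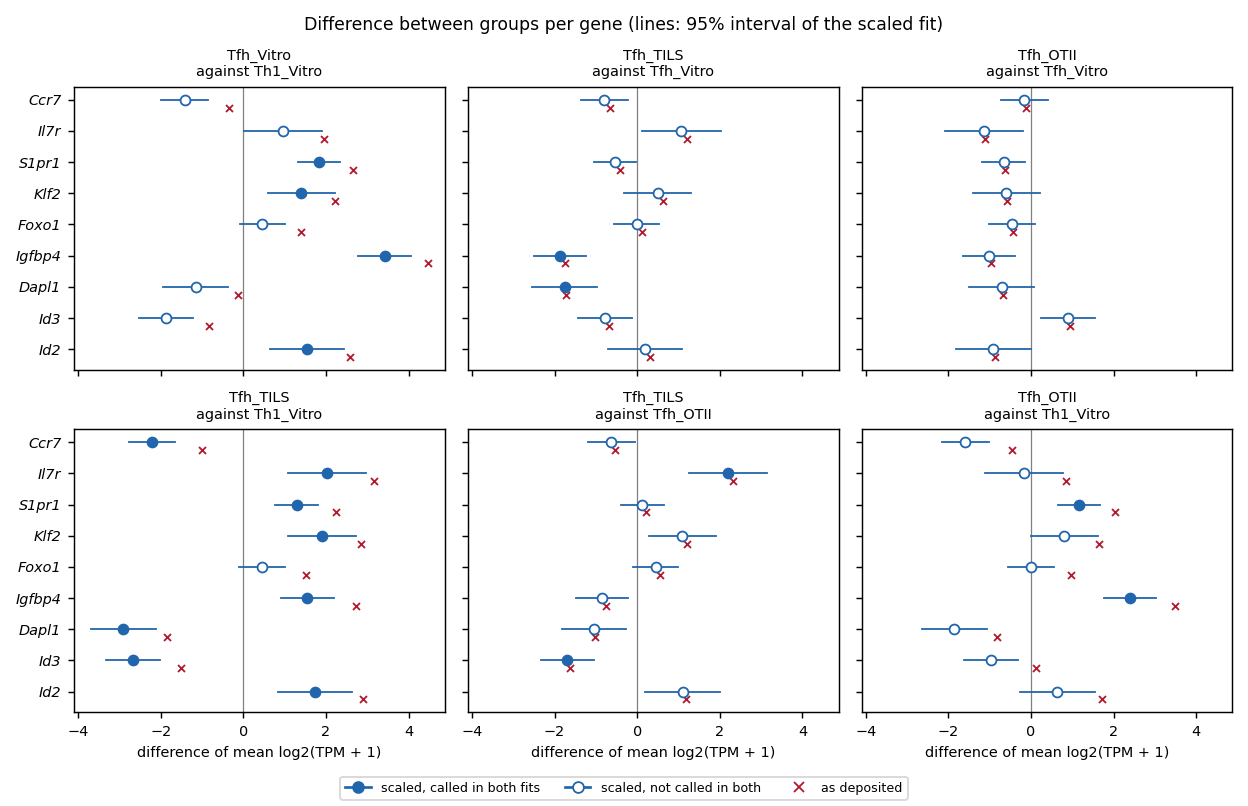
Difference of mean log2(TPM + 1) per gene in the 6 comparisons, the first-named group minus the second. Circles are scaled values with 95% intervals, filled where limma called the gene in both fits, and crosses are values as deposited. In Tfh_OTII against Tfh_Vitro no circle is filled, and in Tfh_TILS against Th1_Vitro 8 of 9 are, with Ccr7, Dapl1 and Id3 to the left of 0.

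More members were called between tumour Tfh cells and the Th1 culture than in any other of the 6 comparisons. Il7r, Klf2, Id2, Igfbp4 and S1pr1 were higher and Dapl1, Id3 and Ccr7 lower in Tfh_TILS, so that 8 of 9 members were called in both fits, against 10.7% of all genes (10.2% higher and 0.545% lower). On scaled values alone 8 members were called, against 17.2% of all genes, and as deposited 9, against 49.9%. The median log2 difference was 1.29 over the members and 0.15 over all genes on scaled values, and 2.24 and 0.87 as deposited. The Tfh_TILS, Tfh_Vitro and Th1_Vitro values are those given above, since these comparisons share their libraries. Dapl1 and Id3 were the members that fell most, by 2.90 (SE 0.36, limma adjusted p = 0.000529) and 2.66 (SE 0.30, limma adjusted p = 0.000286). Ccr7 fell by 2.21 on scaled values (SE 0.26, limma adjusted p = 0.000388) and by 1.01 as deposited. The entry receptor was thus lower and the egress receptor S1pr1 higher, by 1.29 ± 0.24 (SE, limma adjusted p = 0.00372), and their ratio was 13.5-fold that of Th1_Vitro. Id2 rose by 1.73 ± 0.42 (SE, limma adjusted p = 0.0139), and the Id2 to Id3 ratio of 6.95, 34.8 and 9.004 was 24.5-fold that of Th1_Vitro. Il7r rose by 2.03 ± 0.44 (SE, limma adjusted p = 0.00791), or by 1.41 without Tfh_TILS replicate 2 (limma adjusted p = 0.0155). Klf2 rose by 1.90 ± 0.38 and Igfbp4 by 1.55 ± 0.29 (SE, limma adjusted p = 0.00549 and 0.0041). Without Tfh_TILS replicate 2, which has the most macrophage marker RNA, Klf2 was higher by 1.49 and Id2 by 1.19 (limma adjusted p = 0.0215 and 0.0423). The regulatory T cell gene Foxp3 had 54.1 to 147 TPM in Tfh_TILS and 0.547 to 1.53 TPM in Th1_Vitro. The part of regulatory T cell RNA in these differences was not tested. Foxo1 differed by 0.45 on scaled values (limma adjusted p = 0.244) and by 1.52 as deposited, and was called only as deposited. With these 6 libraries alone in the fit, Il7r and Id2 lost their calls (limma adjusted p = 0.065 and 0.0793). Of the 12 other naive genes only Treml2 (1.51) was called in both fits, and their median was -0.57 on scaled values and 0.59 as deposited, of opposite sign. Of the 16 quiescence regulators 2 were higher, Klf4 (1.53), a growth-restraining zinc-finger factor, and Cdkn1b (1.46). Cxcr4 (2.70) and Dock2 (1.23), which drives lymphocyte movement, were higher among the 12 recirculation genes, and none of either list was lower. Of the 8 activation genes 3 were higher and 0 lower. The IL-7 receptor list had 2 higher and 0 lower, and the PI3K and AKT list 1 higher and 0 lower.

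Against the OT-II culture, tumour Tfh cells had more Il7r and less Id3. These are 2 of 9 members, against 13.6% of all genes called in both fits (6.75% higher and 6.84% lower). The share of all genes called was 14.9% on scaled values and 15.3% as deposited, and 2 members were called in each. Il7r had 31.8, 177 and 51.9 TPM in Tfh_TILS, against 15.1, 11.8 and 11.1 TPM in Tfh_OTII, and its scaled log2 difference was 2.21 ± 0.44 (SE, limma adjusted p = 0.00517). Without Tfh_TILS replicate 2 it was 1.58 (limma adjusted p = 0.00742). Foxp3 had 54.1 to 147 TPM in Tfh_TILS and 1.66 to 2.19 TPM in Tfh_OTII, and the part of regulatory T cell RNA was not tested here either. Id3 had 8.82, 7.29 and 8.997 TPM in Tfh_TILS, against 27.5, 31.2 and 25.4 TPM in Tfh_OTII, and fell by 1.69 (SE 0.30, limma adjusted p = 0.00277). Every Tfh_TILS library was above every Tfh_OTII library in Il7r and below every one in Id3. Klf2, Igfbp4, Dapl1 and Id2 had scaled differences of 1.09, -0.85, -1.05 and 1.10 with limma adjusted p of 0.0709, 0.069, 0.0724 and 0.0993. None of these 4 genes was called. Ccr7, Foxo1 and S1pr1 were not called either, with scaled differences of -0.63, 0.45 and 0.13 (limma adjusted p = 0.133, 0.274 and 0.774). Every member other than S1pr1 was apart in all libraries of the groups, as deposited and scaled. So were 30.1% of all genes tested, in 1 direction or the other. Of the 12 other naive genes, 5 were lower in Tfh_TILS and 0 higher, with Satb1 (-2.50) and the neuronal vesicle gene Nsg2 (-1.37) the lowest. The list of recirculation genes held 1 gene higher, Cxcr4 (2.48), and 1 lower, Arrb1 (-1.46). Of the 16 quiescence regulators 2 were higher and 1 lower, and of the 8 activation genes 2 were higher and 2 lower. The IL-7 receptor list had 0 higher and 1 lower, and the PI3K and AKT list 1 higher and 2 lower. Pdk1, not a gene of that pathway, was among the lower ones.

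The OT-II culture was set against the Th1 culture last. S1pr1 and Igfbp4 were higher in Tfh_OTII, 2 of 9 members against 13.4% of all genes called in both fits (12.2% higher and 1.15% lower). Scaled and deposited values each called 5 members, against 20.0% and 43.9% of all genes. S1pr1 differed by 1.16 ± 0.24 (SE, limma adjusted p = 0.00462) and Igfbp4 by 2.40 ± 0.29 (SE, limma adjusted p = 0.000122) on scaled values. Ccr7 (-1.59), Dapl1 (-1.86) and Id3 (-0.97) were called lower on scaled values only, and Klf2 (1.65), Foxo1 (0.98) and Id2 (1.71) were called higher as deposited only. Id3 had the opposite sign as deposited (0.11), as did Il7r (0.85 as deposited and -0.17 scaled), so for these genes no direction is given. The S1pr1 to Ccr7 ratio, free of scaling, was 0.0910, 0.105 and 0.112 in Tfh_OTII, 7.84-fold that of Th1_Vitro. The Id2 to Id3 ratio was 3.17-fold that of Th1_Vitro, with no overlap. Of the 12 other naive genes 4 were higher, led by Treml2 (2.15) and Nsg2 (1.83), and Ly6c1 was lower (-2.14). Of 11 genes of IL-7 receptor signalling 4 were higher, among them the signalling genes Stat5b (1.15) and Jak1 (0.97). Of the 16 quiescence regulators 3 were higher and 0 lower, and of the 8 activation genes 1 was higher and 0 lower. The recirculation list had 2 higher and 0 lower, as did the PI3K and AKT list, where Pdk1, not a gene of that pathway, was among the higher ones.

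The order of the groups by scaled mean differed between members. S1pr1 and Igfbp4 were lowest in Th1_Vitro and highest in Tfh_Vitro, with every Tfh group above Th1_Vitro in both fits. Igfbp4 averaged 101 in Tfh_TILS, 188 in Tfh_OTII, 376 in Tfh_Vitro and 33.4 scaled TPM in Th1_Vitro. Of the neighbours in that order, Tfh_Vitro and Tfh_OTII did not pass the test in both fits, nor did Tfh_OTII and Tfh_TILS, whereas Tfh_TILS and Th1_Vitro did. S1pr1 averaged 10.1, 9.31, 15.1 and 3.57 scaled TPM in the same groups, and of its neighbours only Tfh_OTII and Th1_Vitro passed the test in both fits. Ccr7 and Dapl1 ran the other way, highest in Th1_Vitro and lowest in Tfh_TILS. Ccr7 averaged 59.2, 89.6, 101 and 269 scaled TPM and Dapl1 2.82, 6.62, 11.2 and 26.2 scaled TPM in Tfh_TILS, Tfh_OTII, Tfh_Vitro and Th1_Vitro, and no neighbours of either gene passed the test in both fits. Id3 was also highest in Th1_Vitro and lowest in Tfh_TILS, at 6.54, 23.2, 12.0 and 49.5 scaled TPM, again with no neighbours that passed it. Il7r, Klf2 and Id2 were highest in Tfh_TILS, and no neighbours in their orders passed the test in both fits. Foxo1 had the narrowest range of group means, 12.6, 9.03, 12.8 and 9.25 scaled TPM, and its orders with and without scaling were not the same.

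**Figure D4:**
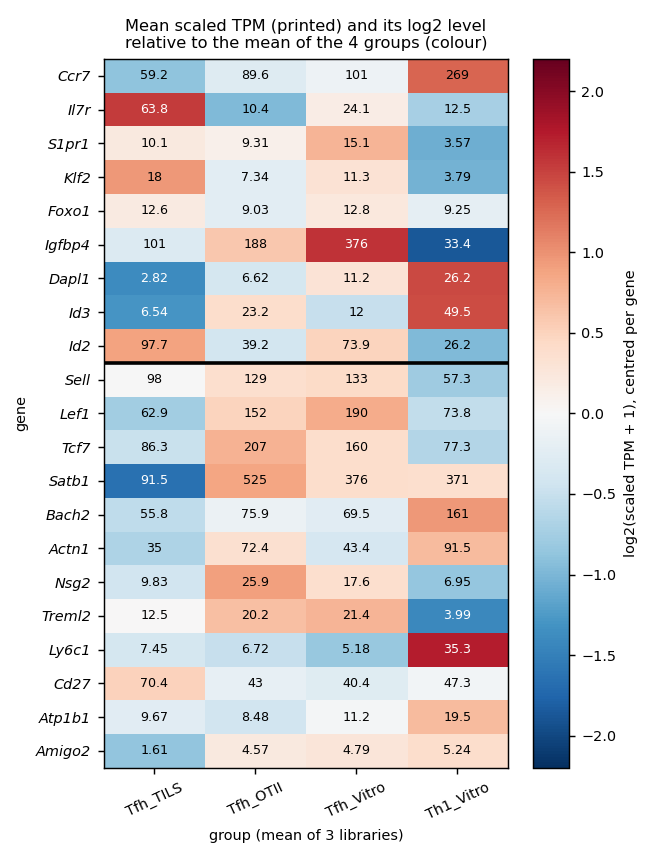
Mean scaled TPM (printed in each cell, n = 3 libraries) of the 9 genes, above the black line, and of 12 other naive T cell genes, below it, in 4 groups. Colour is log2(scaled TPM + 1) relative to the mean of the groups for that gene. Il7r is highest in Tfh_TILS (63.8), Igfbp4 in Tfh_Vitro (376) and Ccr7, Dapl1 and Id3 in Th1_Vitro, and Satb1 is lowest in Tfh_TILS (91.5).

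The genes whose levels ran most like each member were found among 11130 protein-coding genes whose mean reached 5 TPM in some group. Likeness was the root mean square difference of log2(scaled TPM + 1) over the 12 libraries after centring each gene, so a smaller value is a closer match. Foxo1 was closest to Nfatc1 (0.118), the gene of a calcium-regulated transcription factor, while its own spread was 0.327. Ccr7 was closest to the kinase gene Pim2 (0.202), Klf2 to the early response gene Egr1 (0.224), and S1pr1 to the ribosomal protein gene Rpl10 (0.229). The closest to Id3 was Timm13 (0.249), a mitochondrial import gene, and to Il7r it was Sv2c (0.250), followed by the chemokine receptor gene Cxcr6 (0.264). Cxcr3, a chemokine receptor gene of Th1 cells, was closest to Id2 (0.289), and it averaged 9.29, 2.81 and 5.73 scaled TPM in Tfh_TILS, Tfh_OTII and Tfh_Vitro and 2.00 in Th1_Vitro. Igfbp4 and Dapl1 stood furthest from their closest genes but also had the widest spread of their own, 1.29 and 1.13. The mitotic gene Ube2c stood 0.458 from Igfbp4 and the ribosomal protein gene Rps2 0.452 from Dapl1. Among the members themselves, Ccr7 and Dapl1 were nearest to each other (0.439), followed by Klf2 and Id2 (0.494). The libraries share their groups and their scaling, and these values carry no test.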

How the data were processed

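RNA of 12 libraries in 4 groups of 3 was analysed. Per the labels' protocols, libraries were stranded, ribosomal RNA was removed and reads were pairs of 75 bases. Reads were quantified with kallisto on mm10, per the submitters' processing notes. The kallisto version, transcript annotation and strand setting are not given in the sources used here. The authors deposited TPM, 1 value per gene symbol and library; depth is unknown, so no counting interval is given. Of 35492 symbols, 34769 (97.96%) matched GENCODE mouse release 21.

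The TPM were divided by median-of-ratios size factors over 17585 genes above 0 in all libraries. Genes with a mean of at least 1 deposited TPM in 1 group or more (23308) were tested with limma 3.58.1 in R 4.3.3 on log2(value + 1). The fit held all 12 libraries, 1 mean per group and a trend in the prior variance. The same fit was run on TPM as deposited. The threshold for a call was 0.05 for p adjusted by Benjamini-Hochberg over all genes tested. Fold changes are on the log2(value + 1) scale and understate changes of low genes. Errors are limma's moderated standard errors. Within-library ratios were compared by exact two-sided permutation. The fit was tested on simulated data that were made and fitted with the same size factors, so this cannot test the scaling. Tables and figures used Python 3.11.15, numpy 2.4.6, pandas 2.3.3 and matplotlib 3.10.9.

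The 9 genes and all lists were chosen with earlier results of these data known. All 9 are named in each comparison, and of each other list at most 2 called genes with the highest and 2 with the lowest fold change, plus genes that check the labels. The 2 genes most like each member were those with the smallest root mean square difference. Nothing in the labels says that replicates came from separate animals or cultures, so the p-values reflect library-to-library spread alone, and this may be technical. Alternatives were other scalings, no filter, a 5 TPM filter, a pseudocount of 0.1, only the compared groups in the fit, a replicate block and leaving out each library. Same-numbered libraries were taken as unpaired. Foxo1 overlaps 2 annotated models, Gm20402 and Gm38034, and the share of reads between them could not be checked.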

Additional observations from a re-analysis of the deposited data

How the results depend on the processing

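Counts here are members called on scaled TPM. They were 6 in Tfh_Vitro against Th1_Vitro, 2 in Tfh_TILS against Tfh_Vitro, 0 in Tfh_OTII against Tfh_Vitro, 8 in Tfh_TILS against Th1_Vitro, 2 in Tfh_TILS against Tfh_OTII and 5 in Tfh_OTII against Th1_Vitro. Leaving out 1 library gave 4 to 6, 0 to 2, 0 to 0, 8 to 8, 2 to 4 and 4 to 5 in that order. Without a filter the count in Tfh_TILS against Tfh_Vitro was 1. With only the compared groups in the fit it was 3 in Tfh_OTII against Tfh_Vitro, and with a filter at 5 TPM it was 5 in Tfh_TILS against Tfh_OTII. Without Tfh_TILS replicate 1 it was 4 there. All other alternatives that kept every library stayed within 1.5 times, and the cause of these moves was not tested.

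Signs turned mostly for values near 0. In Tfh_OTII against Th1_Vitro they also turned with the scaling for Id3 and Il7r, which were -0.97 and -0.17 on scaled values. Id3 was called on scaled values. Foxo1 in Tfh_TILS against Tfh_Vitro was 0.11 as deposited, 0.016 with trimmed-mean scaling and 0.14 with scaling on protein-coding genes (a sum that holds Gm10800), and ran from -0.078 to 0.12 with 1 library left out, positive without Tfh_TILS replicate 2 or Tfh_Vitro replicate 1. Id2 there ran from -0.35 (without Tfh_TILS replicate 2) to 0.51, and S1pr1 in Tfh_TILS against Tfh_OTII from -0.069 (without Tfh_OTII replicate 1) to 0.28. In Tfh_OTII against Th1_Vitro, Il7r was 0.85 as deposited, 0.90 with protein-coding scaling and -0.49 to 0.064 with 1 library left out, positive without Th1_Vitro replicate 2. Id3 was 0.11 and 0.15 under the first 2 of these, and Foxo1 was -0.049 with trimmed-mean scaling and -0.27 to 0.14 with 1 library left out, negative without Tfh_OTII replicate 2 or 3 or Th1_Vitro replicate 2.

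The replicate numbers did not pair the libraries: 2 of 18 same-numbered pairs had a correlation of deviations above 0.1 (range -0.45 to 0.28), and 0 libraries correlated best with their own number. With the number as a replicate block, the counts were 6, 2, 0, 8, 2 and 4 in the order above. Depth is unknown, which limits what can be said of genes near 1 TPM.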

Other observations

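The spread between libraries of a group differed from member to member. In Tfh_TILS, the coefficient of variation of scaled TPM was 82.9% for Il7r, 71.7% for Id2 and 57.5% for Klf2, all highest in replicate 2, and 7.52% for Foxo1 and 8.67% for S1pr1. In Tfh_OTII it was 2.81% for Il7r, and in Th1_Vitro it was 5.90% for Igfbp4 and 8.95% for Ccr7 but 48.2% for Id3 and 47.0% for Id2. Dapl1 in Tfh_TILS had a coefficient of 56.4%, with its lowest value in replicate 2.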
